A study of Drosophila melanogaster with 4 samples.

Results

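The *br* gene (broad, locus tag Dmel_CG11491) lies on the X chromosome of *Drosophila melanogaster* in the cytological interval 2B. Binding of GFP-tagged Usp there was described from the peaks of X whose midpoint fell between 1450000 and 1600000 in FlyBase release 5 coordinates, a window of 150 kb meant to hold the locus and its flanks. It held 14 peaks, out of 245 on X and 3053 in the whole list. The window is defined by position and not by the values of its peaks, but it was chosen with earlier results of these data known. Gene models of release 5 were not used here, so no peak is placed in an exon, an intron or a promoter of *br*, and how far the gene reaches within the window was not checked.

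The *br* gene encodes a family of transcription factors, made by alternative splicing, that join a shared BTB domain to different zinc finger pairs. It is one of the classical early genes of the ecdysone response and gives rise to the early puff at 2B in salivary gland chromosomes, and its products are needed for larvae to enter metamorphosis. Usp (Ultraspiracle, encoded by *usp*) is a nuclear receptor, the fly relative of the retinoid X receptors of vertebrates. It pairs with the ecdysone receptor EcR, and the pair is the hormone-binding form that acts on early genes. In the RefSeq gene table, which is on Release 6, the span of the mucin-related gene *Mur2B* overlaps *br*. The nearest protein-coding genes that do not overlap it are *inc* (insomniac, an adaptor of a ubiquitin ligase) and *dor* (deep orange, which acts in vacuolar protein sorting).

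The series compared 2 ChIP libraries with 2 input libraries. All 4 carry the strain label USP-GFP, the genotype label PBac{y[+]-attP-3B}VK00033 and a transgene of the USP genomic coding region, and come from wandering larvae in L3, with sex labelled unknown. The 2 ChIP libraries were made with the rabbit polyclonal antibody ab290 against GFP. Whole larvae were used, so binding in any 1 tissue cannot be told apart from binding in others. The authors' processed data are 1 scored peak list without values per library. Replicate means and spreads can therefore not be given for a peak, and depth per library is unknown. Peaks are not replicates, and no test was run between the window and the rest of X: the counts, medians and shares of both are set side by side.

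Usp peaks in the *br* window formed 2 compact groups with a long empty flank. Joining peaks less than 5 kb apart, edge to edge, gave a lone peak, a left group of 5 peaks at lower coordinates and a right group of 8 peaks. The left group ran over 4.39 kb, from 1470318 to 1474704, and the right group over 10.7 kb, from 1504361 to 1515062. From its first to its last peak, the stretch that held peaks was 55.9 kb long.

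**Figure D1:**
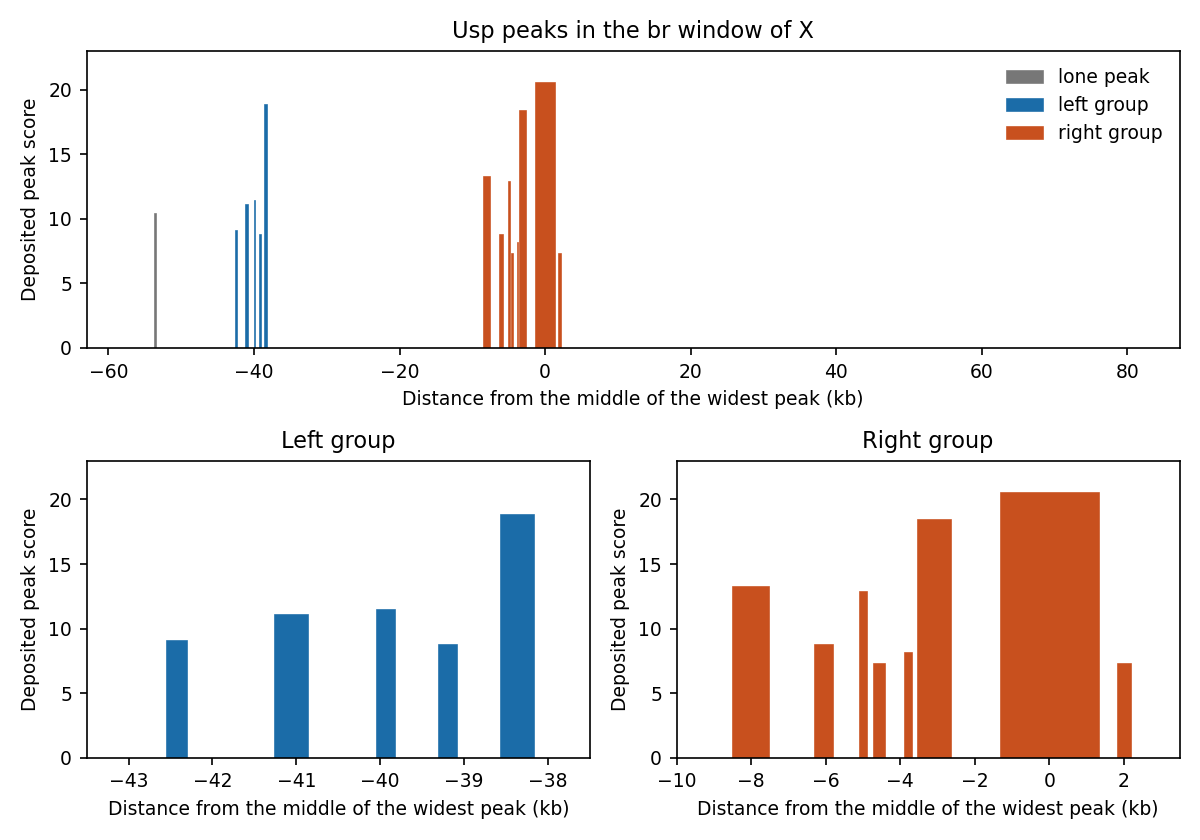
Peaks of the br window drawn to scale, by distance in kb from the middle of the widest peak (horizontal) and deposited score (vertical), with the whole window above and the 2 groups enlarged below. Each bar is 1 peak and its breadth is the width of the peak. The 5 peaks of the left group and the 8 of the right group are separated by 29.7 kb, and the 84.9 kb of the window to the right of the last peak are empty.

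The stretches between and around the groups were empty at the authors' threshold. The lone peak was 11.0 kb from the left group, and 29.7 kb without a peak separated the left group from the right, from 1474705 to 1504360. Of the 244 gaps between neighbouring peaks of X, 87 (35.7%) were longer than that one. Beyond the right group no peak was called for 204 kb, from 1515063 to 1719246, a stretch that holds the last 84.9 kb of the window. On X, 35 gaps (14.3%) were longer. Before the lone peak, 288 kb held no peak, from 1171283 to 1459144. The peaks of the window were thus set off from their neighbours on both sides, and the choice of window borders cut through no group. The peak just before the window, 1171080 to 1171282, lay 279 kb from its border and scored 16.38. The peak just after it, 1719247 to 1719559, lay 119 kb from the border, scored 11.13 and opened a region of 9 peaks.

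What the score measures is not stated in the list. Over the whole list, the 52 scores shared by at least 10 peaks fell close to −log10 of a Poisson upper tail, the chance of at least k fragments (a whole number) over a background of 43.89, at a mean distance of 0.00309 score units. Of these scores, 50 lay within 0.01 of it and 2 did not, 8.19 (62 peaks) and 9.77 (80 peaks), the farther by 0.0145. A peak within 0.01 of this series was given a pileup of k and a fold of k over that background, with its exact Poisson 95% interval, which reflects counting error alone. All 14 peaks of the window have scores among the 52 used for the fit, so their place on the series is no separate check of it. Of these 14, 13 lay on the series, 92.9%, against 92.2% of all X peaks. The share was 73.5% on the autosomal arms and 74.5% in the whole list, so many peaks of the list have scores that this reading does not give. The other peak of the window, 1508970 to 1509182 with a score of 8.19, has one of the 2 repeated scores beyond the tolerance, missed the series by 0.0138 and is given no fold.

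The left group had its highest score at its right edge. In order along the chromosome, the peak from 1470318 to 1470569 scored 9.14 (252 bp), the peak from 1471609 to 1472007 scored 11.13 (399 bp), and the peak from 1472828 to 1473051 scored 11.48 (224 bp). The fourth, from 1473558 to 1473791, scored 8.82 (234 bp). The last, from 1474302 to 1474704, scored 18.87 (403 bp), the second highest score of the window, with an implied pileup of 116 fragments or 2.64 times the background (2.18 to 3.17). The other 4 stood at 2.03 to 2.21 times. Their intervals, which together run from 1.63 to 2.70, overlap that of the last peak. Neighbours in the left group were 506 to 1039 bp apart, with a median of 665 bp, and its peaks covered 34.5% of its length. None was wider than 403 bp.

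The right group held broader peaks. It opened with a peak from 1504361 to 1505357, 997 bp wide and scoring 13.28, 2.32 times the background (1.89 to 2.82). Then came 4 weaker or narrower peaks: 1506570 to 1507071 (502 bp) scored 8.82, 1507778 to 1507994 (217 bp) scored 12.91, 1508157 to 1508466 (310 bp) scored 7.31, and the peak without a fold (213 bp) scored 8.19. The strongest part of the group came next, as 2 broad neighbours 1306 bp apart. The first, from 1509335 to 1510239, was 905 bp wide and scored 18.45, 2.62 times the background (2.16 to 3.15). The second, from 1511546 to 1514200, was 2655 bp wide and had the highest score of the window, 20.61, from an implied pileup of 120 fragments, 2.73 times the background (2.27 to 3.27). A last peak, from 1514693 to 1515062, scored 7.31 (370 bp), 1.91 times (1.53 to 2.37), equal to the lowest of the window. Gaps within the right group were 152 to 1306 bp, with a median of 503 bp. The peaks covered 57.6% of its length and made up 78.1% of all bases covered in the window.

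The lone peak at the left of the window, from 1459145 to 1459357, was 213 bp wide and scored 10.45, 2.14 times the background (1.73 to 2.62). Together with the peak without a fold it was the narrowest of the window. Both lay near the 201 bp of the narrowest peak in the whole list.

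**Figure D2:**
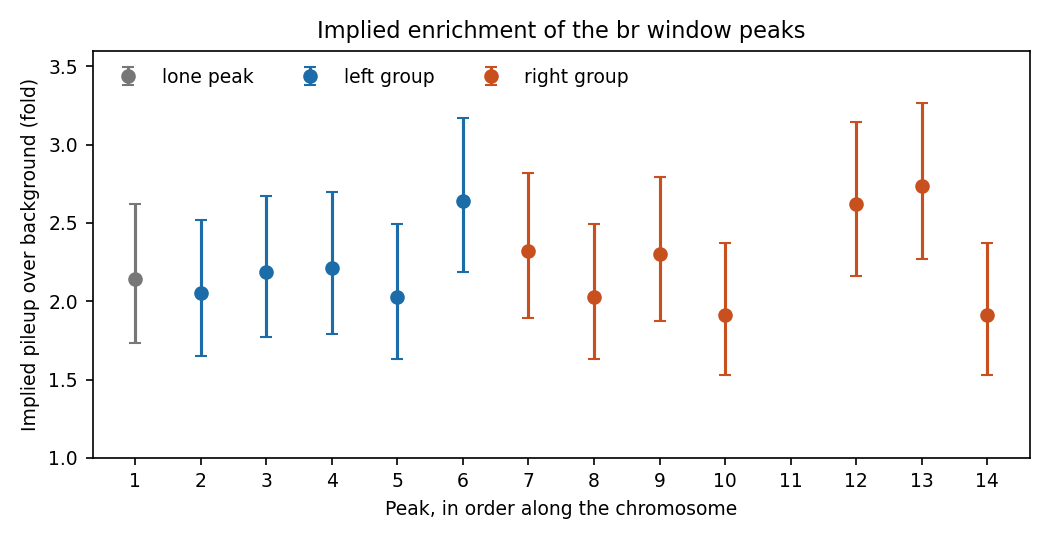
Implied pileup over the background of 43.89 fragments (fold, vertical axis from 1) for the 13 peaks of the br window on the score series, numbered along the chromosome. Bars are exact 95% Poisson intervals and cover counting error only. Peak 11 is off the series and has no point. The folds run from 1.91 to 2.73, and all intervals overlap. Only called peaks have a fold, and the lowest in the whole list is 1.80.

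The folds of the 13 peaks ran from 1.91 to 2.73 with a median of 2.19, and of the 78 pairs of peaks, 0 had intervals that did not overlap. Only peaks that passed the authors' call have a fold, and the lowest in the whole list was 1.80. The intervals take no account of that selection. The widest gap was between implied pileups of 84 and 120 fragments, and no test of it was run. On this reading of the score, the 3 highest scores, 20.61, 18.87 and 18.45, correspond to implied pileups of 120, 116 and 115 fragments. Their order cannot be told from these implied counts. Overlap of intervals does not show that 2 peaks were equally bound.

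Most scores of the window lay below the median of X. Its median score was 10.8 (interquartile range 8.82 to 13.2), against 14.0 (10.8 to 18.9) for the other 231 X peaks. The exact binomial interval of the median, 8.19 to 18.5, takes in the value of the other peaks. At 14 peaks it covers more than the nominal 95%, and it takes peaks as independent, so this overlap decides nothing. Among the 14 peaks, 11 scored below the X median of 13.7. A score of at least 18.87, which marks the top 25% of X, was reached by 2 of 14 peaks (14.3%, exact binomial 95% interval 1.78 to 42.8%), against 25.3% of all X peaks. Scores below 10, a limit chosen after the values were seen, were given to 6 of 14 (42.9%) against 20.4% of all X peaks. The highest score of the window ranked 48th of the 245 on X, and 15.6% of all peaks on the 6 chromosome arms scored as high or higher.

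The window held some of the broadest peaks of X, though its median width lay near that of the other X peaks. The median width was 340 bp (interquartile range 226.5 to 477 bp), close to the 310 bp (245.5 to 411.5 bp) of the other X peaks, with an exact binomial interval of 217 to 905 bp. At the upper end, the 2655 bp peak was the second widest on X, after a peak of 14197 bp. It was the only one of the 14 wider than 1 kb (7.14%), against 2.45% of all X peaks. The 997 bp and 905 bp peaks ranked 7th and 9th. The window thus held 3 of the 10 widest peaks of X, all in the right group, a count made after the values were seen. Of its 14 peaks 21.4% are among these 10, against 4.08% of all X peaks.

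**Figure D3:**
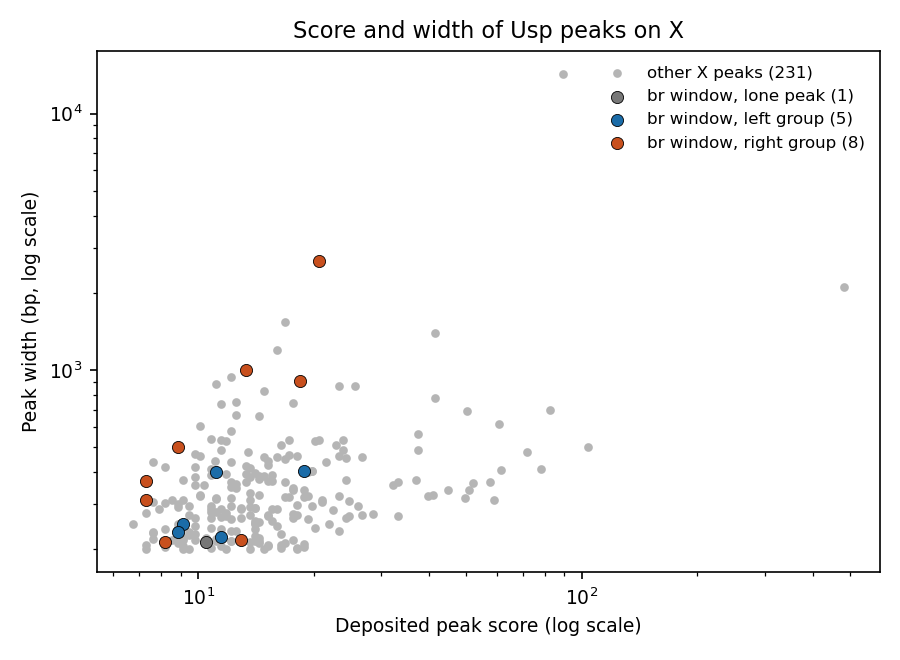
Deposited score (horizontal, log scale) and width in bp (vertical, log scale) of the 245 Usp peaks of X, each point 1 peak. The 14 peaks of the br window lie at scores of 7.31 to 20.61, and 3 peaks of its right group, of 905 to 2655 bp, lie above most other peaks of X at like scores.

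Among the 14 peaks, score and width had a Spearman correlation of 0.48 and a Pearson correlation of 0.65 on log10 values. Among the other X peaks the values were 0.35 and 0.46. No interval was worked out for any of these values, and the difference between the sets was not tested. These are correlations across peaks of 1 list, in which both measures come from the same peak call.

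The *br* window was one of the densest stretches of X. Its 14 peaks amounted to 93.3 per Mb, against 10.8 per Mb on the rest of the span of X, a ratio of 8.62 (exact binomial 95% interval 4.64 to 14.8, which takes peaks as independent). It thus held 5.71% of the X peaks on 0.698% of the span. Counted as regions joined at 5 kb the ratio was 3.65 (0.74 to 10.9), on 3 of 120 regions. Of 145 windows of 150 kb laid end to end along X, 3 (2.07%) held at least 14 peaks, the *br* window among them. These windows were laid from the borders of the *br* window, so groups elsewhere could be cut by a border while those at *br* were not. The windows from 1600000 to 1750000 and from 1750000 to 1900000 held 10 and 8 peaks. All of those peaks lay from 1719247 to 1865203, within less than 150 kb, and the border at 1750000 parted them. The median of the other 144 windows was 0, and 76 of them held no peak. The windows with more peaks ran from 3550000 to 3700000, with 21, and from 12550000 to 12700000, with 15. The window from 2050000 to 2200000 followed with 13.

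Set beside these 3 windows, the *br* window had more bases under peaks and a lower median score. Its peaks covered 7.89 kb, or 5.26% of the window, against 7.07 kb, 5.63 kb and 5.66 kb in the windows with 21, 15 and 13 peaks. Its median score of 10.8 stood beside 12.2, 12.6 and 11.8, all inside its own interval of 8.19 to 18.5. That interval takes peaks as independent, and no test of the differences was run. The top score, 20.61, was above the 18.87 of the window with 21 peaks, while the windows with 15 and 13 peaks reached 82.53 and 103.94. The widest peak was broader at *br*, at 2655 bp, than in each of the 3 windows, at 604, 700 and 941 bp.

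**Figure D4:**
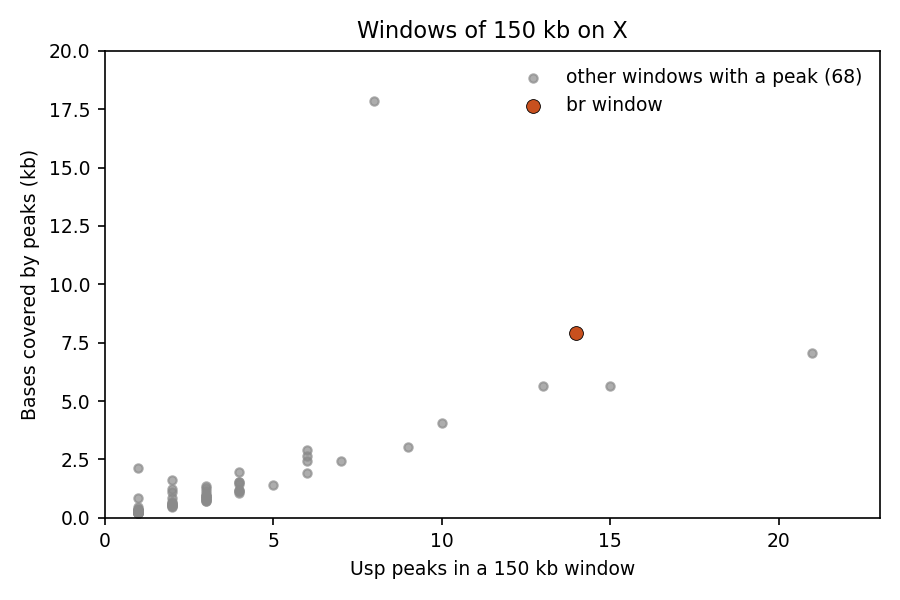
Number of Usp peaks (horizontal) and bases covered by peaks in kb (vertical) for the 69 windows of 150 kb on X that hold a peak, each point 1 window. The windows are laid from the borders of the br window. Among them the br window, with 14 peaks covering 7.89 kb, is passed in peaks by 2 windows and in covered bases by 1.

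On the rest of the X span, 0.464% of the sequence lay under peaks, so the covered share of the *br* window was 11.4 times as high. Only 1 other window had more covered bases, 17.9 kb from 1750000 to 1900000, of which 14197 bp are the widest peak of the list. Much of the coverage at *br* came from its own broad peak, which made up 33.6% of it. Without that peak, the other 13 covered 5.24 kb, the ratio to the rest of X was 7.53, and 4 other windows had more covered bases. The rest of X and the other windows kept their own widest peaks here, so this comparison is unequal.

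Peaks of the window lay close together. Another peak within 5 kb was found for 13 of 14 (92.9%, exact binomial interval 66.1 to 99.8%), against 69.4% of all X peaks. The median distance to the nearest peak was 506 bp in the window and 1386 bp for the other X peaks. Among the 120 joined regions of X, 75 were single peaks and 4 held more peaks than the right group. The left group ranked 10th by number of peaks, and 10 regions held 5 or more. Over these 10, the covered share of a region had a median of 37.2% and a range of 18.0 to 64.0%. The right group, at 57.6%, was passed by 1 region, 1719247 to 1725240, which is also the next region with peaks after the *br* window and holds 9 peaks in 5.99 kb. The highest scores of the 10 regions ran from 17.6 to 103.94, with a median of 20.4, so the 18.87 of the left group and the 20.61 of the right fell in the lower and middle part of that range.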

How the data were processed

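ChIP and input DNA from wandering larvae were sequenced, with 2 libraries each. The authors deposited a single peak list on FlyBase release 5, made with MACS per the file headers, in which every peak has a score. Tools named in the submitters' processing notes are MACS2, BWA and CASAVA (1.7.0.2, 1.7.0.3), with the build BDGP5. Not given in the sources used here are the calling threshold, the filters, any pooling of replicates, and whether replicates came from separate cultures. Flies are called *y; bw cn sp* in the labels' protocols and USP-GFP in the strain label.

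The background behind the scores was searched from 5 to 100 in steps of 0.01 on the whole list. Simulated lists tested the fit only over a narrow range around the fitted value, with pileups drawn from those it had assigned. They cannot show whether the wide search finds the right background. Had the Poisson tail counted more than k fragments, each pileup would be 1 lower. The span of X ran from its first to its last peak. Peaks were named by the rule of the 5 highest scores, the 3 widest, the first and last peak, the borders of the longest empty stretch and the largest joined group; the remaining peaks are given because there are few. The planned placement of peaks on genes was not done for want of a release 5 annotation. The window, lists and measures were chosen with earlier results of these data known. Computations used scipy 1.17.1, numpy 2.4.6 and pandas 2.3.3 in Python 3.11.15, with figures from matplotlib 3.10.9.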

Additional observations from a re-analysis of the deposited data

How the results depend on the processing

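No paired analysis was possible because libraries have no values of their own in the list, and leaving out a library was not possible for the same reason. Among 18 alternatives, 11 stayed within 1.5 times the count or within the interval of the value reported, and 7 moved. The 14 peaks became 6 regions with peaks within 1 kb joined and 3 within 5 kb, where the density ratio fell from 8.62 to 3.65. The ratio was 4.74 in the top 50% of arm peaks by score and 5.40 in the top 25%, which leave 5 and 3 peaks in the window. In the top 50%, which keeps high scores by construction, the median score was 18.45 (10.79 over all 14 peaks) and the median width 905 bp (340 bp), both over 1.5 times higher and both at the upper bound of their intervals, so counted among the 11. The median width became 2046.5 bp with peaks within 1 kb joined. The share with a neighbour, 92.9%, was 100% at 20 kb, against 81.6% of all X peaks at that distance. The share in the top 25% of X by score, 14.3%, was 0% in the top 10% (0 of 14 peaks, exact binomial upper limit 23.2%), against 10.2% of all X peaks. With the other windows shifted by 75 kb, 0 of 143 held more than 14 peaks, against 2 of 144 before. The *br* window kept its own borders, while new borders cut through the peaks of the windows that had held 21 and 15. The 0 therefore depends on where borders fell and cannot be read as a higher density at *br*. The shift of windows and the Poisson tail of more than k fragments were chosen after seeing the data. That tail moved the median fold from 2.19 to 2.16. Counting error, peaks taken as independent and an unknown depth limit all of these values.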
